A study of Homo sapiens with 6 samples.

Results

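The genes described here encode enzymes that oxidise, reduce, hydrolyse or conjugate drugs, retinoids, steroids and reactive aldehydes, or that supply and use glutathione. Members were the protein-coding genes of the deposited table whose symbols carry the family names CYP, ALDH, AKR, ADH, RDH, DHRS, CBR, UGT, GST, MGST, SULT, NQO, GPX, GCL, TXNRD, FMO, CES, EPHX or HMOX, or are POR, GSR or GSS. The name rule itself used no expression value, but it was set with earlier results of these data known. It was applied to genes already listed for a difference between the groups, and it gave 45 of the 5681 genes of the table. RNA-seq had been performed on HT-29, an established human colorectal cancer cell line, in 3 libraries carrying a Scramble hairpin (genotype WT in the labels) and 3 carrying a hairpin against OGT (shOGT, genotype OGT knock down). OGT encodes O-GlcNAc transferase, which attaches N-acetylglucosamine to nuclear and cytoplasmic proteins. The study used this comparison to look for genes that respond to OGT depletion. Libraries are called here by the numbers in their labels, 1 to 3 for Scramble and 4 to 6 for shOGT. The labels name no time after infection and no separate cultures, so the p-values given here measure only the spread between these libraries, which may be technical, and the comparison rests on a single cell line.

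Detoxifying enzymes are usually described in phases. In the first, cytochromes P450, dehydrogenases, reductases and esterases introduce or expose a reactive group. In the second, transferases attach glucuronic acid, sulfate or glutathione to it, and transporters then export the product. Aldehyde dehydrogenases and aldo-keto reductases also remove aldehydes made by lipid peroxidation, and the ALDH1A enzymes make retinoic acid from retinal. In the gut these enzymes are found mainly in the epithelium, where nuclear receptors, the aryl hydrocarbon receptor and the oxidant sensor NRF2 are known to control many of their genes.

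OGT itself (ENSG00000147162, chromosome X) had 9628, 11638 and 11619.5 in libraries 1 to 3 and 484, 621 and 537 in libraries 4 to 6. It fell by 4.32 on the log2 scale (standard error 0.11, adjusted p = 1.59e-12, limma), which left 4.99% of the Scramble level and matched the labels. Values were normalized counts, that is reads per gene divided by 1 size factor per library. Summed over the table, the reads came to 4145921 to 4504303 in Scramble and 3302558 to 3471647 in shOGT, which is not the depth of the libraries, since the table holds only genes whose group means differed about 2-fold or more. Accordingly 99.4% of the 5671 genes tested were called by an absolute log2 fold change above 1 with an adjusted p below 0.05, 52.2% higher and 47.2% lower in shOGT, and the groups did not overlap for 99.5%. A call on a member, its adjusted p and the separation of its groups are therefore no results in themselves. The direction, the size and the level of each gene are what can be described. Among the 4127 protein-coding genes tested, 42.3% were called higher and 57.1% lower. Of the colorectal epithelial markers, 6 of 20 were in the table, with summed normalized counts of 9100 to 10966 in Scramble and 18653 to 20606 in shOGT. KRT20, KRT19, CEACAM6 and CDH17 were higher, LGALS4 and VIL1 were lower, and none of the 6 was at 0 in any library. KRT20 stood at 877 ± 64.9 (SD, n = 3) normalized counts in Scramble and 5641 ± 118 in shOGT. LGALS4 went the other way, from 2201 ± 167 to 561 ± 30.0, so the markers had no common direction. In bulk RNA, a change in the number of cells of 1 kind and a change in RNA per cell cannot be told apart.

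All 45 members passed the filter on low values. They divided into 17 higher (37.8%) and 28 lower (62.2%) in shOGT, close to the 42.3% and 57.1% of all protein-coding genes tested. Their groups did not overlap for any of the 45, which also held for 99.5% of all genes tested. Log2 fold changes ran from −3.30 for DHRS2 to 3.23 for DHRS9. The median was −1.21, against −1.11 for protein-coding genes and 1.05 for all genes tested. The median of all genes jumped from 1.05 to between −0.96 and −0.90 when 1 shOGT library was left out. Genes read only in shOGT then fail the filter of at least 1 in 3 libraries, and no gene of the table lay near 0. Counts by direction jump less but depend on the same filter. With each library left out in turn, 2483 to 2897 genes were called higher. The human annotation (GENCODE 29) holds 206 protein-coding genes with these names, and 21.8% of them were in the table, against 20.7% of all protein-coding genes. This share differed between roles. It was 52.6% for aldehyde dehydrogenases (10 of 19) and 34.9% for alcohol, retinol and carbonyl reductases and dehydrogenases (15 of 43). Esterases and epoxide hydrolases had 33.3% (3 of 9), and glutathione, thioredoxin, quinone and haem redox enzymes 22.2% (4 of 18). For cytochromes P450 with their reductase and flavin mono-oxygenases it was 14.5% (9 of 62), and for conjugating transferases 7.27% (4 of 55). These shares count all annotated genes, whether or not HT-29 cells express them, so they do not measure how far a role responded. Enzymes such as POR, NQO1, GCLC, GSR, TXNRD1 and GPX4, and all SULT, MGST, FMO and CBR genes, are absent from the table and were not analysed here.

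**Figure D1:**
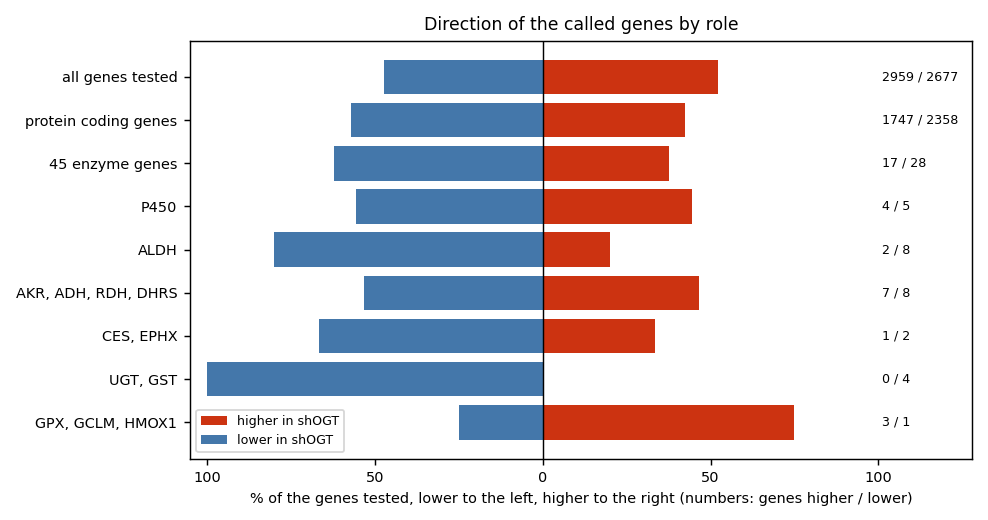
Share of the genes tested that were called lower (bars to the left) or higher (bars to the right) in shOGT, in percent, for all genes, protein-coding genes, the 45 enzyme genes and their 6 role groups, with the numbers higher and lower at the right. The 45 enzyme genes (17 higher, 28 lower) lie close to the protein-coding genes (1747 higher, 2358 lower), and the role groups range from 0 of 4 higher for the UGT and GST genes to 3 of 4 higher for the GPX, GCLM and HMOX1 group.

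Short sequences around 2 regulatory motifs are shown first, since the genes that carry them recur below. Promoters, 250 bases before to 50 bases after 1 RefSeq start site per gene (GRCh38.p14), were matched for 38 of the 45 members and searched on both strands. The antioxidant response element, the site of NRF2 and small MAF proteins, has the core TGACNNNGC. It was found in 4 of 38 members (10.5%), in 14.7% of the protein-coding genes of the table with a promoter and in 13.6% of the 27305 promoters of the reference. The printed run is 5′ to 3′ on the strand given, with the core in capitals and 10 bases on each side. The DHRS9 core began 163 bases before the start site, that of GCLM 34, that of CYP2B6 41 and that of CYP4F11 156.
DHRS9, chr2:169066904-169066932, plus strand: ctcctggtttTGACCAAGCctagccaaag
GCLM, chr1:93909446-93909474, plus strand, opposite to the gene: tggaagacaaTGACTAAGCagaaatcgta
CYP2B6, chr19:40991231-40991259, minus strand, opposite to the gene: ccttttatccTGACCCTGCctctgcaccc
CYP4F11, chr19:15935005-15935033, plus strand, opposite to the gene: cagctcagggTGACACAGCatgggcacag

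DHRS9 and GCLM were higher in shOGT, whereas CYP2B6 and CYP4F11 were lower, so the motif was present in 2 of 14 higher and 2 of 24 lower members with a promoter. The E-box CACGTG, bound by c-Myc with MAX and by USF proteins, is of interest because c-Myc is a subject of the study. It was found in 4 of 38 members (10.5%), against 7.43% of all promoters, and all 4 belonged to the 24 lower members. Of the protein-coding genes of the table, 10.5% of those higher and 9.15% of those lower carried it. The 4 sites are shown on the strand of the gene, with the E-box in capitals. Their first base lay 9, 34, 84 and 69 bases before the start site of AKR1A1, GSTO2, UGT1A1 and ADH1C.
AKR1A1, chr1:45550807-45550832, plus strand: ttgcaccgccCACGTGgccagcgcca
GSTO2, chr10:104269140-104269165, plus strand: cgggtaggatCACGTGcgaggggcag
UGT1A1, chr2:233760176-233760201, plus strand: tttttatagtCACGTGacacagtcaa
ADH1C, chr4:99352800-99352825, minus strand: aaacctagatCACGTGtgtagttgga

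These matches describe letters in a window and are not binding sites measured in these cells, and the cells may use other start sites. For AKR1A1, GSTO2, DHRS9, ADH1C, GCLM, CYP2B6 and UGT1A1, GENCODE annotates a start further upstream than the window's, and the runs printed for GCLM and CYP2B6 span that start. No test was made of these shares. The core of the xenobiotic response element, GCGTG, which the aryl hydrocarbon receptor binds with ARNT, occurred in 28.9% of the members' promoters, in 47.8% of those of the protein-coding genes of the table and in 36.3% of all promoters. CCAAT, the box bound by NF-Y, occurred in 47.4%, 39.3% and 35.7% of these. The higher members had promoters of lower GC content (median 52.8%, with 5 CpG dinucleotides) than the lower members (median 61%, with 16). For all protein-coding genes of the table, the medians were 64% with 23 CpG for those higher and 65.5% with 25 for those lower. Both groups of members thus had fewer CpG dinucleotides at the median than the protein-coding genes of the same direction, and no test was made of this difference.

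The cytochromes P450 are haem mono-oxygenases. Of the 9 in the table, 4 were higher and 5 were lower, with a median log2 fold change of −1.10. Their summed normalized counts were 943 ± 113 (SD, n = 3) in Scramble and 537 ± 18.5 in shOGT, most of which came from CYP2S1. The higher P450s were all low in Scramble.

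CYP3A4 (chromosome 7, 99756960 to 99784265, minus strand), the main drug-oxidising P450 of liver and gut, had 1.77, 4.51 and 5.52 normalized counts in Scramble and 31.6, 21.4 and 25.0 in shOGT. Its fetal relative CYP3A7 had 19.5, 14.4 and 11.0 against 86.3, 60.0 and 75.1. In both genes every shOGT library stood well above every Scramble library, with log2 fold changes of 2.53 (standard error 0.43, adjusted p = 6.86e-05, limma) and 2.24 (0.31). CYP2C18, an epidermal and intestinal member of the CYP2C family, had 8.87, 15.3 and 15.6 in Scramble and 28.4, 46.1 and 42.1 in shOGT, and its log2 fold change was 1.49. CYP19A1, the aromatase that makes oestrogens from androgens, had 24.8, 33.3 and 23.9 in Scramble and 61.0, 62.1 and 47.8 in shOGT. Its groups did not overlap, library 6 lying lowest of shOGT. Its log2 fold change of 1.04 fell below 1, to between 0.95 and 0.98, on leaving out library 1, 3, 4 or 5. Part of the count is uncertain for CYP3A7, since the read-through gene CYP3A7-CYP3A51P covers 39.6% of its exon bases, and for CYP2C18, where AL583836.1 covers 38.5%.

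CYP2S1, an extrahepatic P450 of epithelia, was the most abundant P450 of the table per length. It had 672, 524 and 551 normalized counts in Scramble and 258, 246 and 310 in shOGT. Its log2 fold change was −1.10, and −0.99 without library 1. CYP2B6, a drug-oxidising P450 known as a target of the receptors CAR and PXR, had 199, 168 and 131 in Scramble and 23.2, 42.8 and 21.6 in shOGT. With a log2 fold change of −2.51 (adjusted p = 1.00e-06, limma, with a standard error of 0.28), it fell the most of the P450s here. CYP1A1, the classical target of the aryl hydrocarbon receptor, had 26.6, 14.4 and 18.4 in Scramble and 4.21, 5.36 and 10.2 in shOGT. Its groups were separate by a narrow margin, with a log2 fold change of −1.49.

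CYP4F11, an omega-hydroxylase of fatty acids and vitamin K, had 39.0, 41.5 and 43.2 in Scramble and 13.7, 9.64 and 14.8 in shOGT (log2 fold change −1.64). CYP51A1, the sterol 14-demethylase of cholesterol synthesis, had 79.8, 82.0 and 59.8 in Scramble and 31.6, 24.6 and 9.11 in shOGT (log2 fold change −1.87). The shOGT libraries of CYP51A1 were spread widely, library 6 lying lowest. AC000120.2 covers 79.4% of its exon bases on the same strand, so part of its count is uncertain. P450s that neighbour each other within 1 Mb moved the same way, CYP3A4 with CYP3A7 on chromosome 7 and CYP2B6 with CYP2S1 on chromosome 19.

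Aldehyde dehydrogenases oxidise aldehydes to acids. Here 8 of 10 were lower and 2 were higher, with a median log2 fold change of −1.39, and the 2 that rose are both makers of retinoic acid. ALDH1A1 (chromosome 9, 72900662 to 73080442, minus strand), a retinal dehydrogenase often used as a marker of stem-like tumour cells, had 8611, 8418 and 7859 normalized counts in Scramble. In shOGT it had 25029, 24924 and 24531. The libraries of each group lay close together, the groups were far apart, and the log2 fold change was 1.58 (adjusted p = 4.44e-10, limma, with a standard error of 0.08). ALDH1A1 provided 37.0 to 38.3% of the summed member counts in the Scramble libraries and 60.9 to 61.5% in the shOGT libraries. The sum over all 45 members rose from 22115 ± 1093 to 40535 ± 519 (SD, n = 3), and without ALDH1A1 it was 13819 ± 744 and 15707 ± 290. ALDH1A2, the retinal dehydrogenase of the embryo, had 36.4, 20.7 and 31.3 in Scramble and 177, 212 and 176 in shOGT, a log2 fold change of 2.67 (adjusted p = 1.08e-07, limma, with a standard error of 0.24). It was thus higher by 6.40-fold by the means, but per 1000 bases of exon it reached 21.9 ± 2.37 in shOGT, beside 8715 ± 92.1 for ALDH1A1.

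The aldehyde dehydrogenases that fell included mitochondrial enzymes of amino acid breakdown. ALDH4A1, which completes the breakdown of proline, had 716, 511 and 579 normalized counts in Scramble and 146, 118 and 93.3 in shOGT. The log2 fold change was −2.34 (adjusted p = 1.40e-08, limma, with a standard error of 0.17), and AL080251.1 covers 41.1% of its exon bases. ALDH7A1, an enzyme of lysine breakdown and of betaine synthesis, had 1082, 971 and 955 against 347, 402 and 321 (log2 fold change −1.49). ALDH1B1, a mitochondrial acetaldehyde dehydrogenase found in colonic crypts, had 577, 556 and 542 against 176, 172 and 204 (log2 fold change −1.60). ALDH3B2, an enzyme of fatty aldehydes in lipid droplets, fell the most, from 253, 171 and 196 to 27.4, 17.1 and 34.1. Its log2 fold change was −2.97 (adjusted p = 1.04e-07, limma, with a standard error of 0.27). In all of these, as in every lower member, each shOGT library lay under each Scramble library. The groups were likewise separate for 99.5% of all genes tested. ALDH6A1 (valine and thymine breakdown), ALDH3A1 (an aldehyde dehydrogenase of cornea and stomach), ALDH1L1 (folate metabolism) and ALDH16A1 were lower as well, between −1.44 and −1.09. That of ALDH16A1 was −0.94 without library 1.

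**Figure D2:**
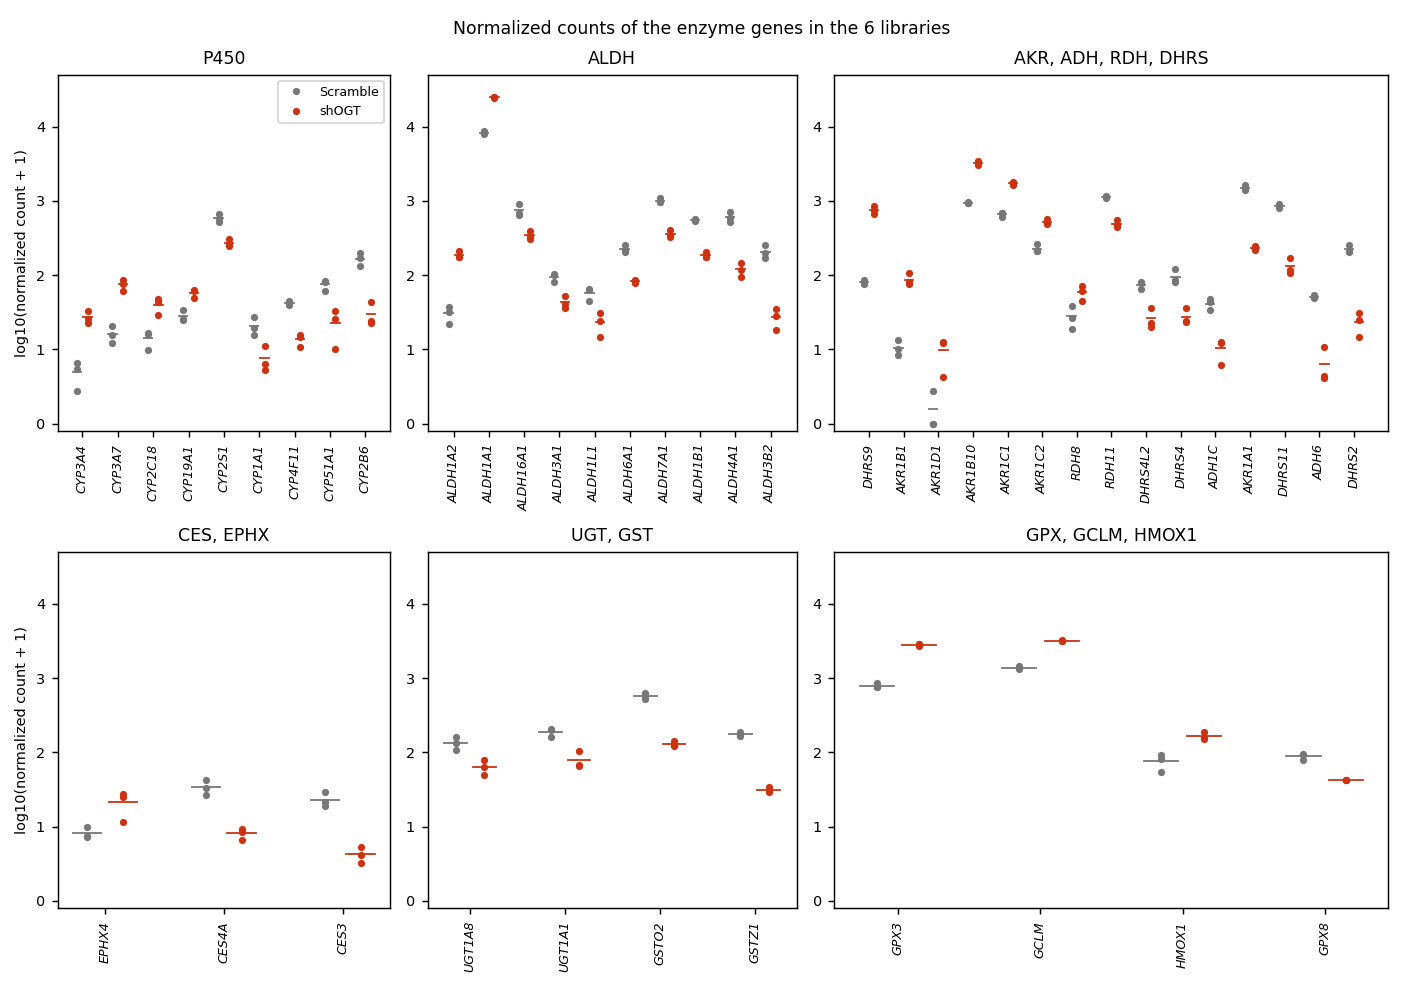
Normalized counts of all 45 enzyme genes in the 6 libraries, on a log10(count + 1) scale, in 6 panels by role, with grey points for Scramble, red points for shOGT and a short line at each group's mean. In no gene do the grey and red points overlap, which also holds for 99.5% of all genes tested. ALDH1A1 stands highest, at 7859 to 8611 in Scramble and 24531 to 25029 in shOGT.

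The aldo-keto, alcohol, retinol and short-chain dehydrogenases interconvert alcohols with aldehydes and ketones. Of 15 in the table, 7 were higher and 8 lower (median log2 fold change −1.21), and the families went different ways. Of the AKR genes 5 of 6 were higher, of the DHRS genes 4 of 5 were lower, and both ADH genes were lower. Family sizes are small, and no test was made of these counts.

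DHRS9 (chromosome 2, 169064789 to 169096167, plus strand), which oxidises retinol and 3-alpha-hydroxysteroids in epithelia, had the highest log2 fold change of the 45, apart from AKR1D1, whose fold depends on the prior count. It stood at 85.1, 77.5 and 74.5 in Scramble and at 656, 748 and 860 in shOGT. That was 9.54-fold by the means and a log2 fold change of 3.23 (adjusted p = 1.07e-10, limma, with a standard error of 0.14). AKR1B1, the aldose reductase that converts glucose to sorbitol, had 12.4, 9.01 and 7.36 in Scramble and 80.0, 73.9 and 105 in shOGT (log2 fold change 3.05, standard error 0.32). Its neighbour AKR1B10, a retinal and aldehyde reductase of the intestine, had 974, 934 and 927 in Scramble and 3482, 3226 and 2991 in shOGT. Here the log2 fold change was 1.77 (adjusted p = 2.98e-10, limma, with a standard error of 0.09). AKR1B1 began from a level near the lower end of the members and AKR1B10 from one near the top.

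AKR1C1, a reductase of progesterone and lipid aldehydes, had 612, 691 and 683 normalized counts in Scramble and 1699, 1782 and 1653 in shOGT (log2 fold change 1.37). Its near-identical neighbour AKR1C2 had a log2 fold change of 1.20. The transcripts share 75-base stretches with other AKR1C genes for 22.2% of AKR1C1 and 41.3% of AKR1C2, so the 2 counts are not fully separate. AKR1D1, the 5-beta-reductase of bile acid synthesis, was at 3 reads or fewer in every Scramble library. It had 11.6, 3.21 and 11.4 normalized counts in libraries 4 to 6, library 5 having only 3 reads as well. Its mean of 8.72 in shOGT was at least 3.22-fold higher than the floor of 3 reads, taken per library, and was carried by libraries 4 and 6. RDH8, a retinol dehydrogenase of photoreceptors, was higher at a low level (log2 fold change 1.11), falling to 0.86 without library 2 and to 0.96 without library 5.

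Among the lower genes of this role, AKR1A1 (chromosome 1, 45550543 to 45570049, plus strand) was the most abundant per length in Scramble. It encodes the aldehyde reductase that uses NADPH on a wide range of aldehydes. It stood at 1655, 1440 and 1378 in Scramble and at 236, 215 and 249 in shOGT, so that 15.7% of the Scramble level was left (log2 fold change −2.67, standard error 0.11, adjusted p = 6.51e-11, limma). The aldo-keto reductases therefore split, with AKR1A1 lower and AKR1B1, AKR1B10, AKR1C1, AKR1C2 and AKR1D1 higher. DHRS2, a mitochondrial and nuclear dicarbonyl reductase, had the lowest log2 fold change of the 45 in the main fit (all libraries, pseudocount 1). It went from 209, 251 and 204 to 29.5, 13.9 and 23.9 (log2 fold change −3.30, standard error 0.27, adjusted p = 3.59e-08, limma). DHRS11, a cytosolic reductase of keto-steroids, had 888, 905 and 788 in Scramble and 169, 105 and 115 in shOGT (log2 fold change −2.75). ADH6, an alcohol dehydrogenase of liver and stomach, had 53.2, 49.6 and 48.8 in Scramble and 3.16, 9.64 and 3.41 in shOGT. Its log2 fold change was −3.15 (standard error 0.41), with few reads behind the shOGT values. Without library 5 it was −3.59, lower than the −3.01 of DHRS2. With a pseudocount of 0.1 and all libraries it was −3.39, beside −3.36 for DHRS2. ADH1C, the class I alcohol dehydrogenase next to it on chromosome 4, was also lower (−2.04), as were DHRS4 (−1.78), DHRS4L2 (−1.55) and RDH11 (−1.21), a retinal reductase. DHRS4 and DHRS4L2 are near copies, with 34.7% and 53.1% of their 75-base stretches shared with other genes.

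**Figure D3:**
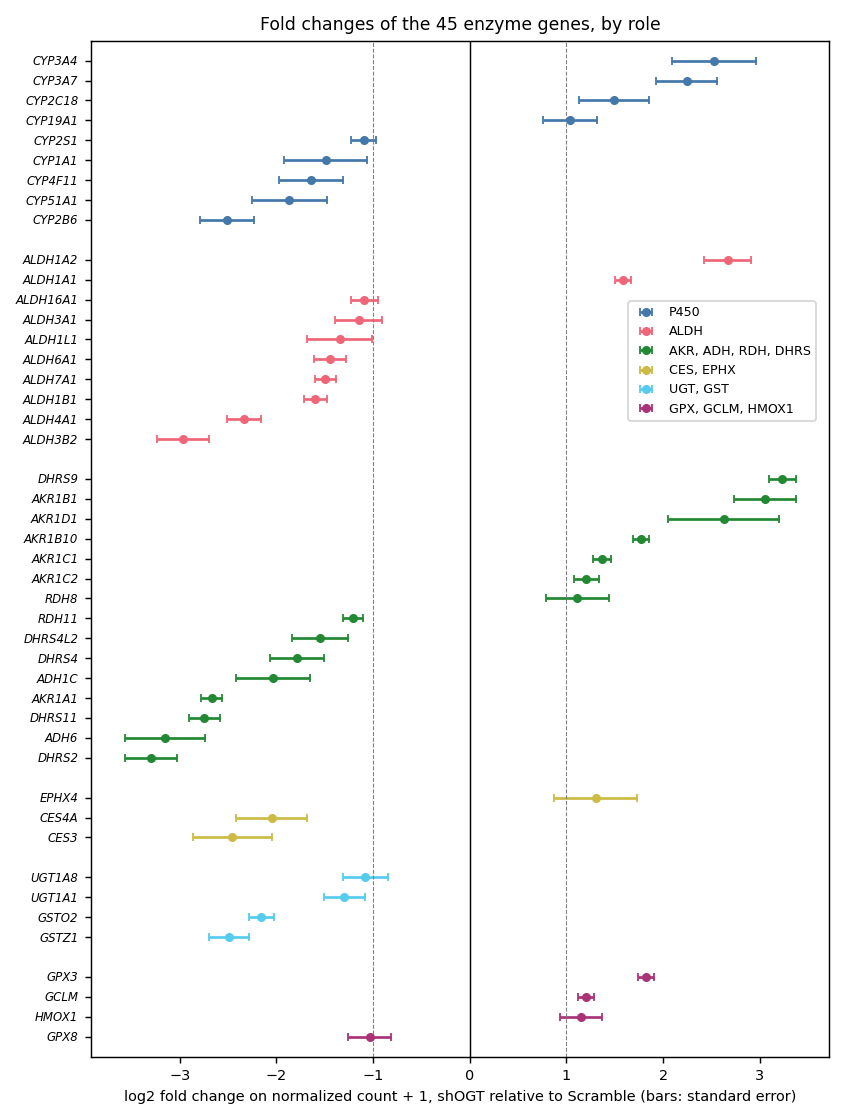
Log2 fold change of each of the 45 enzyme genes (shOGT relative to Scramble, on normalized count + 1; bars are standard errors, dashed lines mark a 2-fold change), ordered by role. DHRS9 stands highest at 3.23 and DHRS2 lowest at −3.30, 5 of the 6 AKR genes lie to the right, and 8 of the 10 ALDH genes lie to the left.

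Esterases and epoxide hydrolases split esters, amides and epoxides with water, and the 3 in the table were all low. CES3, a carboxylesterase of liver and gut, had 28.4, 18.0 and 20.2 normalized counts in Scramble and 3.16, 4.28 and 2.28 in shOGT (log2 fold change −2.46). CES4A, its neighbour on chromosome 16, had 25.7, 32.4 and 41.4 against 8.42, 7.50 and 5.69 (log2 fold change −2.05). Both esterases were separated between the groups, as were all other members and 99.5% of all genes tested. EPHX4, an epoxide hydrolase of little-known substrate, had 6.21, 9.01 and 6.44 in Scramble and 24.2, 10.7 and 26.2 in shOGT. Library 5 lay close to the Scramble libraries. EPHX4 was 2.82-fold higher by the means, and without library 6 it was no longer called (log2 fold change 1.08, adjusted p = 0.05, limma).

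The 4 conjugating transferases of the table were all lower, with a median log2 fold change of −1.73. Their summed counts were 1071 ± 38.0 (SD, n = 3) in Scramble and 299 ± 20.5 in shOGT. GSTZ1, the glutathione transferase of tyrosine breakdown, had 186, 168 and 170 normalized counts in Scramble and 33.7, 28.9 and 28.5 in shOGT. It fell by 2.49 on the log2 scale (standard error 0.21, adjusted p = 4.67e-08, limma). GSTO2, an omega-class transferase that reduces dehydroascorbate, had 577, 524 and 621 in Scramble and 121, 140 and 123 in shOGT (log2 fold change −2.15, standard error 0.13). In both GST genes the replicates lay close together and the groups far apart. UGT1A1, the glucuronosyltransferase that conjugates bilirubin, had 161, 205 and 202 in Scramble and 64.2, 103 and 66.0 in shOGT (log2 fold change −1.30). UGT1A8, a transferase of the intestine, had 162, 132 and 107 in Scramble and 62.1, 49.3 and 77.4 in shOGT (log2 fold change −1.08, and −0.93 without library 1 or −0.92 without library 5). The UGT1A genes are made from 1 locus on chromosome 2 with common last exons. UGT1A10 covers 61.7% of the exon bases of UGT1A8 and 49.9% of those of UGT1A1, so these 2 values cannot be read as independent.

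Of the genes for glutathione supply, peroxide removal and haem breakdown, 3 of 4 were higher. GCLM, the modifier subunit of glutamate-cysteine ligase and thus of glutathione synthesis, had 1312, 1472 and 1353 normalized counts in Scramble and 3151, 3224 and 3129 in shOGT (log2 fold change 1.20, standard error 0.08, adjusted p = 6.82e-09, limma). GPX3, the secreted glutathione peroxidase, had 846, 758 and 766 in Scramble and 2862, 2669 and 2848 in shOGT (log2 fold change 1.82, standard error 0.09, adjusted p = 2.32e-10, limma). Their groups were separated by far more than the spread of either. HMOX1, the inducible haem oxygenase, had 91.4, 53.2 and 80.1 in Scramble and 189, 149 and 155 in shOGT (log2 fold change 1.15, and 0.93 without library 2, the lowest of Scramble). GPX8, a peroxidase of the endoplasmic reticulum, had 90.5, 94.6 and 77.3 in Scramble and 42.1, 41.8 and 42.1 in shOGT. Its log2 fold change of −1.04 was −0.98 without library 2. The summed counts of the 4 genes were 2331 ± 51.3 in Scramble and 6167 ± 80.8 in shOGT (SD, n = 3).

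Levels of different genes were compared as normalized counts per 1000 bases of exon. ALDH1A1 stood first in both groups (2912 ± 137 in Scramble, 8715 ± 92.1 in shOGT, SD, n = 3) and AKR1B10 second (542 ± 14.6 and 1854 ± 141). In Scramble AKR1A1 held rank 3 (478 ± 46.6), and GCLM (254 ± 15.3) and GPX3 (250 ± 15.5), which followed, did not differ beyond their spread. In shOGT GPX3 held rank 3 (883 ± 34.0), GCLM rank 4 (585 ± 9.16) and AKR1A1 rank 10 (74.8 ± 5.48). DHRS9 moved from rank 28 (21.1 ± 1.46) to rank 5 (201 ± 27.3), where AKR1C1 (195 ± 7.49) lay within its spread. At the lower end, AKR1B1 moved from rank 43 to 18, and ADH6 from 32 to 44.

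**Figure D4:**
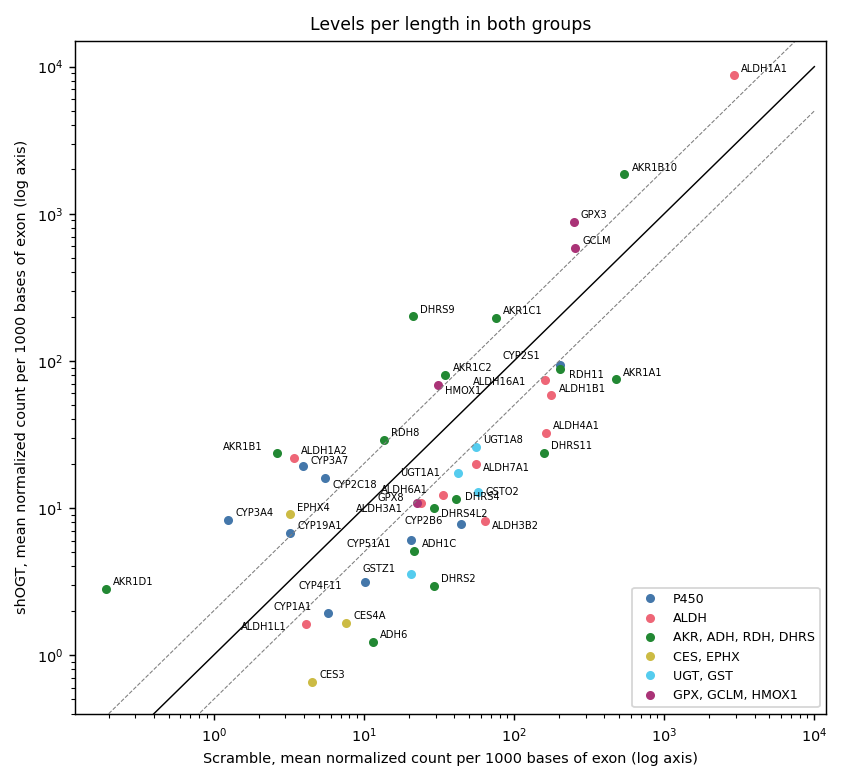
Mean normalized count per 1000 bases of exon in Scramble (x axis) and shOGT (y axis), both on log axes, for the 45 enzyme genes coloured by role. The solid line marks equal levels and the dashed lines a 2-fold difference. ALDH1A1 (2912 and 8715) and AKR1B10 (542 and 1854) lie at the upper right, DHRS9 (21.1 and 201) far above the line and AKR1A1 (478 and 74.8) far below it.

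Consecutive members on a chromosome that lie within 1 Mb of each other formed 9 pairs. In 9 of 9 pairs both genes had the same direction. Besides the P450 pairs these were AKR1C1 with AKR1C2, AKR1B1 with AKR1B10, DHRS2 with DHRS4, DHRS4 with DHRS4L2, CES3 with CES4A, UGT1A8 with UGT1A1, and ADH6 with ADH1C. Sizes differed within pairs, for example 3.05 for AKR1B1 and 1.77 for AKR1B10 on the log2 scale. Pairs with shared sequence (AKR1C, DHRS4, UGT1A and, to a small extent, CYP3A) can share reads, so their agreement in direction is not independent. For CYP3A4, 2.12% of the 75-base stretches were shared with other genes, CYP3A7 among them. The share of neighbours with the same direction was not computed for the rest of the table, and the pairs do not form a test.

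Sizes and calls depend on the scale. When the libraries were scaled anew by the median of ratios (computed from the listed genes), the median over all genes tested moved up by 0.71 on the log2 scale, from 1.05 to 1.76. That scaling takes most genes to be unchanged, whereas the genes it was computed from were all listed for a change. It therefore cannot decide which scale is right. No member changed sign, but a shift of 0.71 could hardly reverse genes that were listed for a change of about 2-fold or more. The 17 higher members remained called, and 14 of the 28 lower members no longer reached 2-fold. Of the 8 lower aldehyde dehydrogenases, ALDH4A1 and ALDH3B2 stayed called, of the 5 lower P450s CYP51A1 and CYP2B6, and of the 4 transferases GSTO2 and GSTZ1. Those no longer called were CYP2S1, CYP1A1, CYP4F11, ALDH16A1, ALDH3A1, ALDH1L1, ALDH6A1, ALDH7A1, ALDH1B1, RDH11, DHRS4L2, UGT1A8, UGT1A1 and GPX8, at −0.96 to −0.33.

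**Figure D5:**
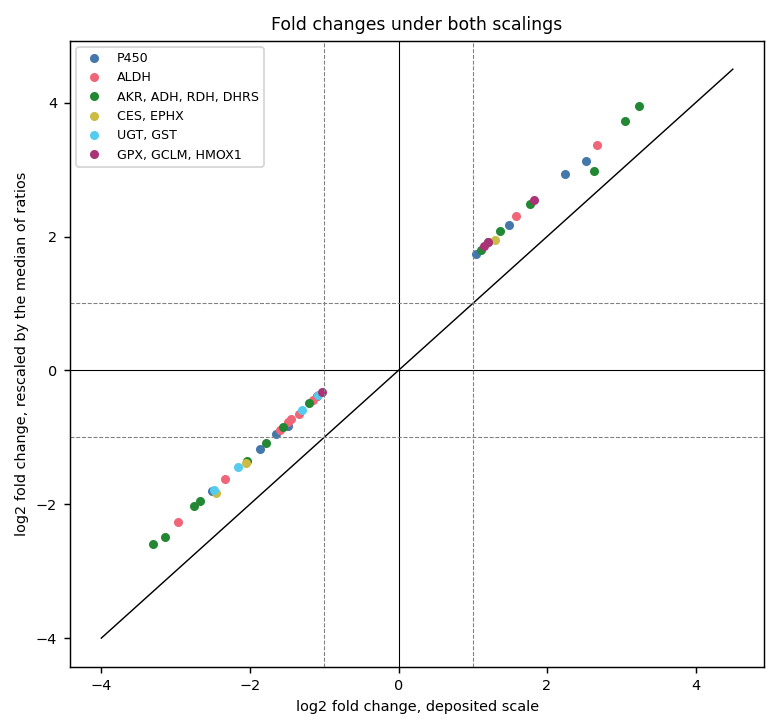
Log2 fold change of the 45 enzyme genes on the deposited scale (x axis) and after a new scaling by the median of ratios (y axis), coloured by role. The solid line marks equal values and the dashed lines a 2-fold change. All points lie above the line, none crosses 0, and 14 lower genes come to lie between −1 and 0.

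Genes that act with these enzymes were taken from lists of their regulators, partners and transporters. Of 27 nuclear receptors and partner factors, 12 were in the table, 1 called higher and 10 lower (NR1I3 was not tested), with a median log2 fold change of −1.60. The lower ones included RARG, a retinoic acid receptor, at 3450 ± 341 (SD, n = 3) against 685 ± 99.5 normalized counts (log2 fold change −2.34). HNF4A, NR1H3, PPARG, PPARD, PPARA, RXRB, ARNT and CEBPB were also lower. RARB was the single receptor that rose, from a low level of 3.55, 2.70 and 2.76 normalized counts in Scramble to 24.2, 31.1 and 29.6 in shOGT (log2 fold change 2.87). Retinoic acid signalling was not tested.

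In the retinoid, aldehyde and quinone list, 13 of 36 genes were in the table, 5 higher and 8 lower (median −1.33). STRA6, the cell-surface receptor for retinol-binding protein, was lower (−2.36), as was DCXR, a dicarbonyl and xylulose reductase (−2.03). SDR16C5, an epidermal retinol dehydrogenase, was higher (2.26).

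Haem is the cofactor of the P450s. Genes for haem synthesis, haem breakdown and electron supply to P450s outside the members formed a list of 24, which therefore lacks the higher HMOX1. The table held 7 of them, and 7 of 7 were lower, beside 57.1% of all protein-coding genes tested. Their median log2 fold change was −1.74. They included PPOX (−3.21), an enzyme of haem synthesis, and BLVRB (−2.38), a biliverdin and flavin reductase, as well as ALAD, UROD, FDXR and CYB5B.

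Of 30 targets and regulators of NRF2 outside the members, 8 were in the table, 5 higher and 3 lower (median 1.09). ABCC2, an exporter of conjugates, was at 3.75 on the log2 scale and ME1, the cytosolic malic enzyme that makes NADPH, at 2.49. PRDX1, OSGIN1 and CUL3 were also higher. BLVRB, ABCC3 and KEAP1 were lower. KEAP1 and CUL3, which are in the list as regulators of NRF2, went opposite ways. Since the list mixes targets with regulators, its counts by direction do not measure NRF2 activity.

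In the list of other glutathione, thioredoxin and peroxiredoxin genes, 18 of 49 were in the table, 4 higher and 14 lower (median −1.23). TXNIP, the thioredoxin-binding arrestin, was lowest (−3.97), followed by MSRB2, a mitochondrial methionine sulfoxide reductase (−2.86). GGT5, at the floor of 3 reads in every Scramble library, was at least 2.85-fold higher. Transporters of conjugates and drugs had 6 of 27 genes in the table, 5 higher and 1 lower (median 2.09). They included ABCC2 and ABCB1, the drug exporter P-glycoprotein (2.29, but 1.71 without library 1 and 2.88 without library 3). ABCB11, the bile salt exporter, was at the floor in Scramble and had 25.3, 15.0 and 4.55 normalized counts in libraries 4 to 6. By the mean it was at least 5.52-fold higher, library 6 lay close to the floor, and the fitted log2 fold change of 2.93 moved to 3.56 without that library and to 2.44 without library 4. Of 22 genes that make, move or use the sugar and sulfate donors of glucuronidation and sulfation, or remove sulfate, 4 were in the table, 3 higher and 1 lower (median 1.24). The single maker of a donor among the higher genes was PAPSS2 (1.05), which makes the sulfate donor. STS, which removes sulfate from steroids (3.70-fold by the means), and UXS1, which turns UDP-glucuronic acid into UDP-xylose (log2 fold change 1.44), were also higher. UGDH, which makes UDP-glucuronic acid for the UGT enzymes, was lower at −1.34, and at −0.63 and no longer called after the new scaling by the median of ratios. Only the 3 genes with the largest change in each list were followed under that scaling, so other lower genes of the lists may lose their call too. Each list is to be read against the 42.3% higher and 57.1% lower of all protein-coding genes tested.

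Markers of other cells were checked because several members are known from liver. Of 13 liver markers 1 was in the table, TTR, at 0 to 1.84 normalized counts in Scramble and 12.6 to 18.2 in shOGT (at least 5.38-fold higher). Of 16 fibroblast and leukocyte markers 4 were in the table, 3 higher and 1 lower (median 1.21), with summed counts of 7978 to 8687 in Scramble and 15699 to 17443 in shOGT. Nearly all of this was LYZ, a lysozyme also made by epithelia of the gut. Without LYZ the sums were 48.7 to 70.1 and 46.1 to 66.0, from PDGFRB (0 in libraries 1 and 3, and at least 5.09-fold higher in shOGT), CD14 (1.42) and ITGAM (−2.11). The part of differentiation or of other cells in the values of the members was not tested.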

How the data were processed

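RNA-seq of HT-29 cells covered 3 Scramble and 3 shOGT libraries, grouped by their labels. The authors deposited a signal table in which each library's reads per gene had been divided by its own size factor (1.09 to 1.13 in Scramble, 0.879 to 0.950 in shOGT), not divided by gene length, with the gene_length of each gene model as a further deposited value. Every value gave back a whole read count (100%, to within 0.02 of a read). The submitters' notes name cutadapt 1.9, HISAT2 2.0.4, UMI-tools, StringTie 1.3.4d, DESeq2 and edgeR without saying which made the table, and the build mm8, a mouse build. The 5681 gene identifiers and positions are human and all matched GENCODE 29 (GRCh38). The labels describe oligo(dT) capture with dUTP and molecular identifiers, the study's methods another strand-specific kit. Use of the strand in counting is not given in the sources used here. Further columns with the authors' means per group, fold changes and p-values were not used.

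The plan allowed for raw or normalized counts, and the branch for normalized values was followed. limma's trend method (limma 3.58.1, R 4.3.3) took log2 of the normalized count with a pseudocount of 1, which understates the change of low genes. The group was its only term, and it covered the 5671 genes that reached 1 in 3 or more libraries. Genes were called at an absolute log2 fold change above 1 with a Benjamini-Hochberg adjusted p below 0.05. The smallest p of an exact two-sided permutation test with 3 against 3 libraries is 0.1, so no such test was run on single genes. Fits were tested on simulated data before use. Replicates of a group all differed by more than sampling noise. A group with 3 reads or fewer in all its libraries was set at a floor, and folds against it, which cover counting error only, were given as bounds. Alternatives were rescaling by the median of ratios, a pseudocount of 0.1, no filter, a mean of at least 5, count tests on the recovered reads (DESeq2 1.42.0 and edgeR 4.0.16, both with the deposited size factors), and each library left out in turn.

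Members and lists were chosen with earlier results of these data known. Values in every library were given for up to 4 highest and 4 lowest members per role, with a mean of at least 10 and no overlap of the groups, for the most abundant member of each role, and for the listed glutathione, thioredoxin, quinone and haem redox genes. Of each list the 3 genes with the largest absolute log2 fold change were named with values, except for some that are not reported here. Other members were named with their direction, genes were also named for sharing sequence or exon bases with a member, and any further gene was chosen after its values were seen. Promoter sequences are those of RefSeq (GRCh38.p14).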

Additional observations from a re-analysis of the deposited data

How the results depend on the processing

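All 45 members kept their direction under every alternative run. Because the table lists only genes that differed about 2-fold or more, this was largely set by the choice of genes. All stayed called with a pseudocount of 0.1, without the filter, in edgeR and in DESeq2. A mean of at least 5 removed AKR1D1, and the other 44 stayed called. Rescaling by the median of ratios takes most genes to be unchanged, which this table does not meet. It left 14 of the 28 lower members called and 1090 of the 2677 lower genes of the table. By role it left 2 of 5 lower P450s, 2 of 8 aldehyde dehydrogenases, 2 of 4 conjugating transferases and 0 of 1 redox genes called lower. With each library left out in turn, 15 to 16 members were called higher and 25 to 28 lower, while over all genes the numbers were 2483 to 2897 and 2512 to 2621. Esterases and epoxide hydrolases called higher ranged from 0 (without library 6) to 1, and redox genes called lower from 0 (without library 2) to 1. Why single libraries moved these members was not tested. No paired analysis was possible because the labels number the libraries 1 to 6 and the groups share no number. Reads limit the low members most, since 17 of 45 had a mean under 50 normalized counts, and the fold of AKR1D1 is a bound only. Genes outside the table, and thus members that moved less than 2-fold or missed the study's p threshold, were not analysed here.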
